A study of Rattus norvegicus with 9 samples.

Results

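The 6 arrays of primary cultures of rat ventral midbrain (MesPC) fall into 2 sets of 3, culture arrays 1 to 3 and culture arrays 4 to 6, and the genes that part these sets are described here. The sets hold 6 of the 9 arrays of the study. The other 3 arrays carry tissue of embryonic day 11 (MesE11) and serve only as a reference level. The sets were taken from the measured values themselves: over 15866 probe sets, the lowest Pearson correlation within a set was 0.9972, and the highest between arrays of different sets was 0.987. The differences below are therefore descriptions of these 6 arrays. No p-value is given for any gene, and no gene or list is offered as evidence that the sets differ.

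Per the labels, embryos of 4 pregnant rats at embryonic day 11 were mixed and divided into 3 groups that were handled separately. Ventral midbrain from each group was either pooled as tissue or dissociated and grown as cells in duplicate for 9 days in vitro. No strain, genotype, medium or drug is named for the cultures, and no cause for the sets. The labels mention 3 arrays for the cultures where 6 are listed, and they do not tell which arrays share an embryo group or a duplicate. A shared culture, a repeated hybridization and a processing day cannot be told apart here, and the spread within a set may be technical. All values are log2 intensities on an Affymetrix expression array, where a difference of 1 is 2-fold. Differences are arrays 1 to 3 minus arrays 4 to 6, with limma's moderated standard error, over 3 and 3 arrays throughout.

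The ventral midbrain gives rise to dopaminergic neurons, which make dopamine from tyrosine by way of tyrosine hydroxylase (Th) and aromatic amino acid decarboxylase (Ddc), and to GABAergic and glutamatergic neurons around them. A dissociated embryonic midbrain culture also contains dividing progenitors, glial cells and mesenchymal cells of meninges and vessels. Neurons leave the cell cycle when they form, whereas progenitors, glia and fibroblasts can go on dividing. In RNA from whole cultures, fewer cells of a type and less RNA per cell cannot be told apart.

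The difference between the sets was uneven in direction once it was large. Of 15866 probe sets, 39 (0.246%) were higher and 251 (1.58%) lower in arrays 1 to 3 by 2-fold or more with no overlap between the sets. One probe set per gene, the brightest over the 9 arrays, gave 27 of 10411 genes (0.259%) higher and 161 (1.55%) lower by the same rule. For 6 of the lower and 1 of the higher genes the mean of the dimmer set was under the highest of 27 control probe sets for bacterial genes, so that the fitted value is no exact measure. Without the 2-fold limit, 26% of the genes were higher and 22.4% were lower with no overlap, so lack of overlap alone was common on these arrays. At its adjusted threshold of 0.05, limma's fit listed 2662 probe sets as higher (16.8%) and 2740 as lower (17.3%), counts that describe the spread only, because the same values had formed the sets. That near-even split became 1134 higher and 4539 lower when each array was centred on ribosomal protein probe sets, a step that moved the median difference of all probe sets from 0.04 to -0.08. Just inside the 2-fold limit lay Wif1 at 1.011 and Ablim1 at -1.001, and just outside it lay Prps2 at 0.9988 and Pcp4 at -0.9998.

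**Figure D1:**
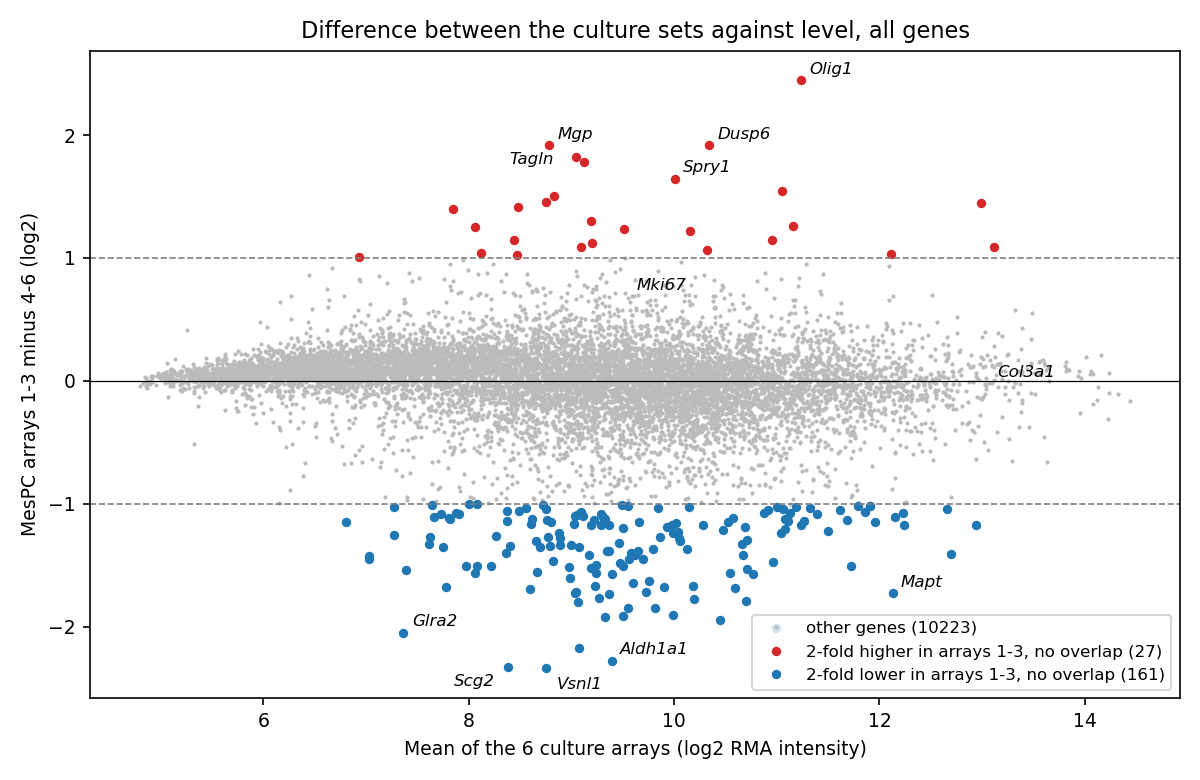
Difference between culture arrays 1 to 3 and 4 to 6 (log2, y axis) against the mean of the 6 culture arrays (log2 RMA intensity, x axis) for 10411 genes, 1 point each, with dashed lines at 2-fold. The 161 genes lower in arrays 1 to 3 (blue) spread over most of the range of levels, and the 27 higher ones (red) are led by Olig1.

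The gene lists were chosen with earlier results of these data known, so the shares here and below are descriptions only. Of 154 measured genes in the neuronal lists, 36 (23.4%) were among the 161 lower ones, against 1.55% of all genes. None of 23 progenitor, 63 glial, 113 mesenchymal and 83 cell cycle genes was among them. Of the 113 mesenchymal genes, 6 (5.31%) were among the 27 higher ones, against 0.259% of all genes. So was 1 of the 63 glial genes, and none of the listed neuronal or cell cycle genes. Most of the others, 123 of the lower and 19 of the higher genes, stood in no list. The lists do not hold every gene of a theme: Pimreg, a mitotic regulator, was among these 19 higher genes, at 1.12 ± 0.07. On its brightest probe set each of the 83 listed cell cycle genes differed by less than 2-fold. Of these, 65 were higher and 4 lower without overlap, and 14 overlapped. Of all genes, 26% were higher and 22.4% lower without overlap.

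Neuronal cytoskeleton genes showed the most uniform difference of the neuronal lists, with a median of -0.99 over 21 measured genes, against 0.03 over all genes. Of the 21, 18 (85.7%) were lower in arrays 1 to 3 without overlap, 10 of them by 2-fold or more, and none was higher without overlap. Of all genes, 22.4% were lower and 26% higher without overlap. Mapt encodes the microtubule-binding protein tau. It read 11.35, 11.16 and 11.28 in arrays 1 to 3 and 12.85, 13.12 and 13.01 in arrays 4 to 6, and its mean in tissue was 13.34. The sets stood well apart, with arrays 4 to 6 close under the tissue, and the difference was -1.73 ± 0.08. The further probe sets of Mapt gave -1.57 and -1.61. Ina, the neuronal intermediate filament internexin, read 10.82, 10.91 and 11.19 against 12.45, 12.47 and 12.52, a difference of -1.51 ± 0.09. Stmn2, a growth-associated regulator of microtubules, read 12.07, 11.76 and 12.14 against 13.43, 13.34 and 13.42, a difference of -1.41 ± 0.09. Both genes were lower on each of arrays 1 to 3 than on any of arrays 4 to 6. The neurofilament gene Nefl differed by -1.18 ± 0.13. Tubb3, the neuronal beta-tubulin, differed by -1.17 ± 0.06 on its brightest probe set, while a much dimmer one gave 0.12. At the other end of the list Map2 differed by -0.27, Nefh overlapped at -0.14, Prph, the peripherin of peripheral neurons, overlapped at 0.09, and Mapk8ip2, a scaffold of JNK signalling, overlapped at 0.29.

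Genes of synaptic vesicles and synapses were lower in arrays 1 to 3 in 18 of 27 cases without overlap, 8 of them by 2-fold or more. They were higher in 2, and the list median was -0.54. The shares were 66.7% lower and 7.4% higher, against 22.4% and 26% of all genes. Syngr3, a synaptic vesicle membrane protein, read 8.43, 8.16 and 8.54 in arrays 1 to 3 against 10.16, 10.17 and 10.13, a difference of -1.77 ± 0.09. Sncb, beta-synuclein, read 8.08, 8.15 and 8.28 against 9.76, 10.09 and 9.86, a difference of -1.73 ± 0.09, while its other probe set gave -0.45. On these probe sets neither gene came near overlap. Sv2a, a vesicle glycoprotein, differed by -1.69 ± 0.06 and Rab3a, a GTPase of vesicle release, by -1.37 ± 0.09. Snap25, a component of the fusion machinery, stayed under the 2-fold limit with 10.55, 10.16 and 10.50 against 11.23, 11.29 and 11.25, a difference of -0.85 ± 0.09. Syn2, Cplx2, Sv2b, Pclo, Rph3a and Unc13a overlapped on their brightest probe sets, so the list did not differ as a whole. Doc2b at 0.18 and Syngr1 at 0.27 were the 2 higher members.

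Of 5 members of the voltage-gated ion channel list lower by 2-fold, 4 encode sodium channel subunits, which carry the rising phase of the action potential. The other was Cacng2, at -1.14 on its brightest probe set and 0.09 on another. Cacng2 is named as a calcium channel gamma subunit but is chiefly a regulator of AMPA-type glutamate receptors. Scn3a, an alpha subunit prominent in the embryonic brain, read 8.66, 8.43 and 8.56 against 10.39, 10.58 and 10.41, a difference of -1.91 ± 0.08. The auxiliary subunit gene Scn3b differed by -1.52 ± 0.08. For the alpha subunit genes Scn2a and Scn1a only bounds can be given. In arrays 1 to 3, Scn2a at 6.18 to 6.45 and Scn1a at 6.21 to 6.27 lay within the range of 27 bacterial control probe sets, 4.80 to 6.68, so they were no higher there than background signal. Against the highest of these controls, arrays 4 to 6 were at least 2.1-fold higher for Scn2a and at least 1.63-fold for Scn1a, below the 2-fold limit. The list of 26 channels had a median of -0.24, or -0.61 without the dimmest 40% of probe sets, with 14 lower and 1 higher without overlap. That 1 was Kcna2, a potassium channel, at 0.29. The shares were 53.8% lower and 3.8% higher, against 22.4% and 26% of all genes.

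Of 14 genes that mark a neuron's transmitter, 5 (35.7%) were lower and 3 (21.4%) higher in arrays 1 to 3 without overlap, against 22.4% and 26% of all genes. The 2 lower by 2-fold belong to GABAergic neurons. Gad1, which makes GABA from glutamate, read 9.25, 8.55 and 9.30 in arrays 1 to 3 against 11.04, 10.87 and 10.93, and 11.16 on average in tissue. It differed by -1.91 ± 0.17, and a dimmer probe set gave -0.54. Slc32a1, the vesicular GABA transporter, read 7.90, 7.77 and 8.602 against 9.84, 9.38 and 9.45, a difference of -1.46 ± 0.20. The spread within arrays 1 to 3 was wider for these GABAergic genes than for the cytoskeletal ones, but the sets did not overlap. Slc17a6, the vesicular glutamate transporter of midbrain neurons, differed by -0.98 ± 0.08, from 8.94, 8.72 and 9.04 to 9.88, 9.83 and 9.93, and its tissue mean of 11.48 lay well above both sets. The serotonin transporter gene Slc6a4 was lower by -0.71 without overlap. Cholinergic and noradrenergic genes such as Chat at 0.01, Slc5a7 at 0.08 and Dbh at 0.04 overlapped between the sets. The 3 higher ones were Slc17a7 at 0.27, a vesicular glutamate transporter, Slc6a2 at 0.20, the noradrenaline transporter, and Slc18a3 at 0.11, the vesicular acetylcholine transporter. The list of 14 had a median of 0.02, which was -0.05 under quantile normalization, -0.04 without array 4, -0.10 under ribosomal centring, and -0.85 when the dimmest 40% of probe sets were left out.

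Of 26 transmitter receptor subunits, 12 (46.2%) were lower and 7 (26.9%) higher in arrays 1 to 3 without overlap, against 22.4% and 26% of all genes. By 2-fold, 3 were lower and none higher. Glra2, the fetal alpha subunit of the glycine receptor, read 6.33, 6.35 and 6.34 against 8.38, 8.46 and 8.34. The former values were no higher than those of bacterial controls. Against the highest bacterial control, arrays 4 to 6 were at least 3.27-fold higher. The fitted difference of -2.05 is no exact measure, and a probe set at background in both sets gave -0.18. The GABA receptor subunit genes Gabrb2 and Gabra5 differed by -1.74 ± 0.08 and -1.55 ± 0.07, and a dimmer Gabrb2 probe set gave -0.08. Htr3a, a serotonin-gated channel, was the highest member at 0.90. The share of higher receptor genes was near that of all genes. The list median was -0.08, or -0.62 without the dimmest 40%.

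Neuropeptides and granins, the cargo of dense-core vesicles, included the second largest lower gene. Scg2, secretogranin II, read 7.36, 7.22 and 7.08 in arrays 1 to 3 against 9.47, 9.55 and 9.62 in arrays 4 to 6, with 10.03 on average in tissue. Arrays 4 to 6 were thus near the tissue and arrays 1 to 3 about 2.3 log2 units under them, a difference of -2.33 ± 0.08. C1qtnf4, a secreted protein of the C1q and TNF family, is counted in this list but is neither a neuropeptide nor a granin. C1qtnf4 read 8.003, 7.90 and 8.06 against 10.05, 10.26 and 10.18, and 12.19 in tissue, a difference of -2.17 ± 0.07. Scg5, a chaperone of prohormone convertase, differed by -1.32 ± 0.13 and Chgb, chromogranin B, by -1.28 ± 0.13. Of the list of 22, 6 were lower by 2-fold, C1qtnf4 among them. Without overlap 15 (68.2%) were lower and 1 (4.5%) higher, against 22.4% and 26% of all genes. The higher one was Penk, the enkephalin precursor, at 0.40. Cpe, Gal, Vip and Cartpt overlapped.

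The promoter of Scg2 is shown because it holds the palindromic cAMP response element TGACGTCA, a motif of genes responding to neuronal activity and cyclic AMP. It lies at chr9:88256817-88257116 on the minus strand of GRCr8, from RefSeq, printed 5′ to 3′ along the gene with the element in capitals.
Scg2: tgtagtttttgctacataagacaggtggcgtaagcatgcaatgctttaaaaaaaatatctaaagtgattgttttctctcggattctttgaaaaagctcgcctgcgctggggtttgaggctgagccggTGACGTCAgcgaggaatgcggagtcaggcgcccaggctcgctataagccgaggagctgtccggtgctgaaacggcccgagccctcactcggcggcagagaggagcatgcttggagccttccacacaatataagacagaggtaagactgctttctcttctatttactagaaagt
RefSeq promoters matched 16 of the 22 neuropeptide and granin genes, and 4 of the 16 (25%) held TGACGTCA, against 1.8% of all 33469 promoters of the same length. A match of letters is a description of sequence and shows no binding.

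Dopaminergic genes did not differ by one amount. Of 19 measured, 11 (57.9%) were lower in arrays 1 to 3 without overlap and none was higher, against 22.4% and 26% of all genes. The list median was -0.25, or -0.54 without the dimmest 40% of probe sets. Ddc, which makes dopamine and serotonin from their precursors, read 8.75, 8.35 and 8.73 against 10.19, 10.19 and 10.16, a difference of -1.57 ± 0.10. A dimmer Ddc probe set gave 0.22 in the other direction. Th, the rate-limiting enzyme of dopamine synthesis, read 8.25, 8.19 and 8.27 against 8.48, 8.81 and 8.71. These Th values did not overlap, but the difference of -0.43 ± 0.08 was small beside the distance of both sets from the tissue mean of 11.53. Slc6a3, the dopamine transporter, differed by -0.82 ± 0.09, with -0.03 on a dimmer probe set. Nr4a2, a nuclear receptor needed for dopaminergic differentiation, read 7.38, 7.24 and 7.24 against 8.11, 8.27 and 8.07, a difference of -0.86 ± 0.07, and -0.38 on its other probe set. The transcription factor gene Foxa2 differed by -0.65 ± 0.08. Slc18a2, the vesicular monoamine transporter, overlapped at -0.03 on its brighter probe set and was lower without overlap by -0.61 on the other. No overlap-free difference was seen in Pitx3, a transcription factor of midbrain dopaminergic neurons, at -0.05 near background, or in Sncg, gamma-synuclein, at 0.08.

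Aldh1a1, an aldehyde dehydrogenase of ventral dopaminergic neurons that also makes retinoic acid, followed another order. It read 8.37, 8.30 and 8.09 in arrays 1 to 3, 10.43, 10.82 and 10.34 in arrays 4 to 6, and 9.17, 8.96 and 9.25 in tissue. Arrays 4 to 6 were thus above the tissue and arrays 1 to 3 below it, with a difference of -2.28 ± 0.12 between them. Calb1, a calcium-binding protein of some dopaminergic and other neurons, read 9.13, 8.92 and 8.92 against 10.03, 10.10 and 9.89, and its tissue mean was 9.19. Here arrays 1 to 3 were close to the tissue and arrays 4 to 6 stood above, a difference of -1.01 ± 0.08.

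**Figure D2:**
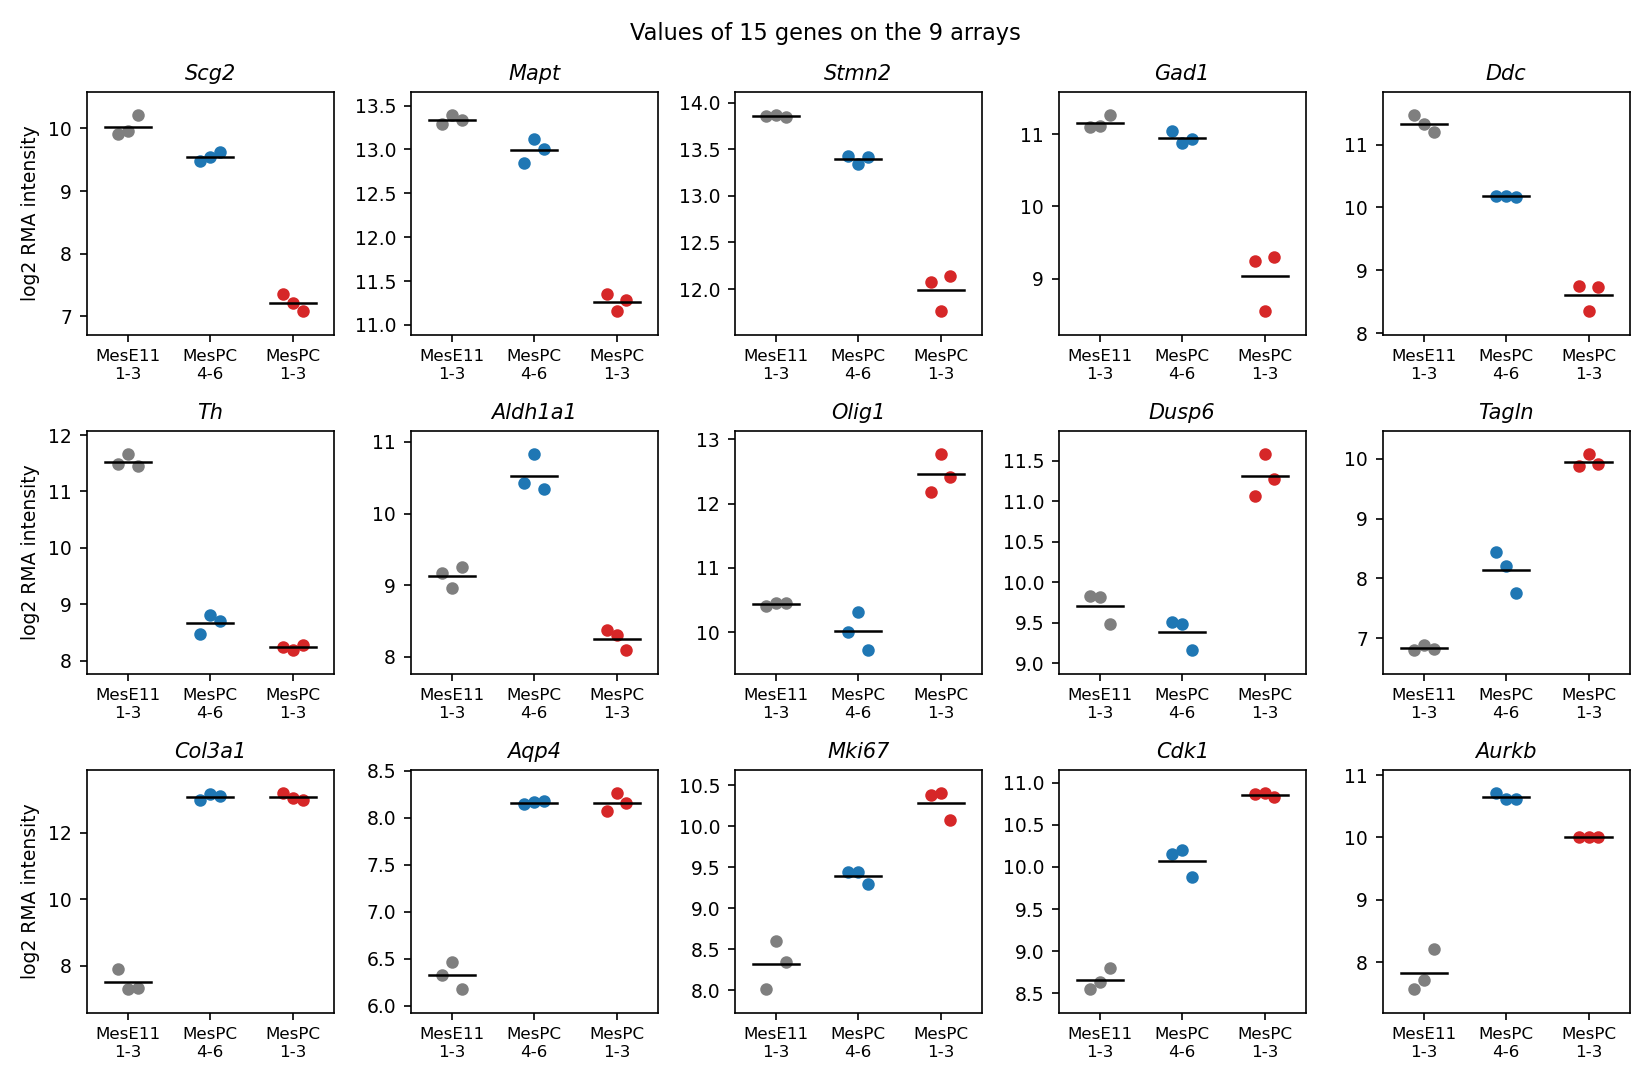
Log2 RMA intensity (y axis, own scale per panel) of 15 genes on each array, 1 point per array, for tissue (MesE11, grey), culture arrays 4 to 6 (blue) and culture arrays 1 to 3 (red), with black bars at the means of 3 arrays. Neuronal genes such as Scg2 and Mapt lie lowest in arrays 1 to 3, Olig1, Dusp6 and Tagln lie highest there, Col3a1 and Aqp4 overlap between the culture sets, and Aurkb runs against Mki67 and Cdk1.

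The remaining genes among the 15 with the largest lower values came from several families. Vsnl1, a neuronal calcium sensor, read 7.84, 7.25 and 7.67 against 9.93, 9.92 and 9.93, the largest lower value of all genes at -2.34 ± 0.12, with -1.51 on its other probe set. Gng3, a G protein gamma subunit, differed by -1.94 ± 0.09, Cd200, a surface glycoprotein that restrains myeloid cells, by -1.92 ± 0.09, and Ptpn5, a striatum-enriched phosphatase, by -1.85 ± 0.10. A Cd200 probe set near background gave 0.04. Celf5, an RNA-binding protein, differed by -1.79 ± 0.09, Rcan2, an inhibitor of calcineurin, by -1.80 ± 0.11 with -0.69 on another probe set, Sh3bp5 by -1.78 ± 0.08 and Spetex2l2 by -2.01 ± 0.06. Pfkp, the platelet-type phosphofructokinase of glycolysis, differed by -1.85 ± 0.12, from 9.08, 8.57 and 9.01 to 10.88, 10.70 and 10.64. Eno2, the neuronal enolase, differed by -1.45 ± 0.06. The list of 26 glycolysis and hypoxia genes was divided, with 9 (34.6%) lower and 10 (38.5%) higher without overlap and a median of 0.00. Of all genes, 22.4% were lower and 26% higher. Hk1, the main hexokinase of brain, was lower at -0.54, while Eno1, the ubiquitous enolase, was higher at 0.35 and Ldhb, a lactate dehydrogenase subunit, at 0.52.

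Progenitor genes split. Of 23 measured, 12 (52.2%) were higher and 7 (30.4%) lower in arrays 1 to 3 without overlap, against 26% and 22.4% of all genes. None reached 2-fold, and the median was 0.19, or 0.11 without array 3 and 0.076 under ribosomal centring. Sox2, which maintains neural stem cells, read 10.16, 10.17 and 10.30 against 9.76, 9.53 and 9.55, a difference of 0.60 ± 0.08. Id2, an inhibitor of basic helix-loop-helix factors, differed by 0.67 ± 0.09 and Nes, the progenitor filament nestin, by 0.37. Pax6, a transcription factor of radial glia and some neurons, differed in the other direction by -0.93 ± 0.12. Sox11, raised in newly formed neurons, was also lower at -0.36. Sox4, of the same family, had no single direction: its probe sets gave -0.47, -0.13 and 0.43.

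The highest gene of all in arrays 1 to 3 was Olig1, a transcription factor of the oligodendrocyte lineage. Its probe set 1387200_at read 12.19, 12.77 and 12.42 in arrays 1 to 3, 10, 10.32 and 9.72 in arrays 4 to 6, and 10.41, 10.45 and 10.45 in tissue. Arrays 4 to 6 and the tissue were close to each other, and arrays 1 to 3 stood 5.45-fold above arrays 4 to 6, a difference of 2.45 ± 0.16. No other member of the oligodendrocyte list reached 2-fold. Bcas1 at 0.72 and Cldn11 at 0.71, genes of maturing and myelinating oligodendrocytes, were higher without overlap, as were Cnp at 0.50, Cspg4 at 0.43, Sox10 at 0.25 and Mbp, myelin basic protein, at 0.20. Pdgfra, the receptor of oligodendrocyte precursors, overlapped at 0.17. In all, 9 of 15 members (60%) were higher and 1 (6.7%), Enpp2, was lower, against 26% and 22.4% of all genes. The list median was 0.20, or 0.50 without the dimmest 40% of probe sets and 0.081 under ribosomal centring.

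Astrocyte genes differed gene by gene. Glul, glutamine synthetase, read 11.56, 11.63 and 11.73 against 10.67, 10.90 and 10.83, a difference of 0.84 ± 0.07. Clu, the secreted chaperone clusterin, differed by 0.83 ± 0.10 and by 0.12 on a dimmer probe set, Ptprz1, a receptor phosphatase of radial glia, by 0.73 ± 0.07, and Apoe, a lipid carrier, by 0.55. Gfap, the astrocyte filament, read 8.44, 8.50 and 8.42 against 8.28, 8.23 and 8.33, which was free of overlap but only 0.18 ± 0.06 apart. Aqp4, the astrocyte water channel, read 8.07, 8.26 and 8.16 against 8.14, 8.16 and 8.18, and its sets coincided at 0.00 ± 0.06, though dimmer probe sets gave 0.08 and -0.36. Ndrg2 at -0.44 and Aldh1l1 at -0.31 were lower. Of 23 astrocyte and radial glia genes, 8 were higher and 3 lower without overlap, shares of 34.8% and 13.0% against 26% and 22.4% of all genes. The list median of 0.08 turned to -0.04 under ribosomal centring. Cst3, a secreted protease inhibitor abundant in astrocytes, stood outside the lists at 1.45 ± 0.11, and Tril, a glial regulator of Toll-like receptor signalling, at 1.54 ± 0.10.

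Other glia showed little. Microglia and macrophage genes had differences from -0.09 to 0.23 with 5 of 18 higher and 1 lower without overlap, and a list median of 0.08 that became -0.04 under ribosomal centring. The median level of that list ran from 7.35 to 7.41 across the former set and from 7.22 to 7.29 across the latter. Of 8 Schwann and neural crest genes, 5 were higher and none lower without overlap, led by Pmp22 at 0.61. These lists are dim, and in the dimmest quartile of all genes the median difference was 0.08 with 29.7% higher and 5.5% lower without overlap.

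**Figure D3:**
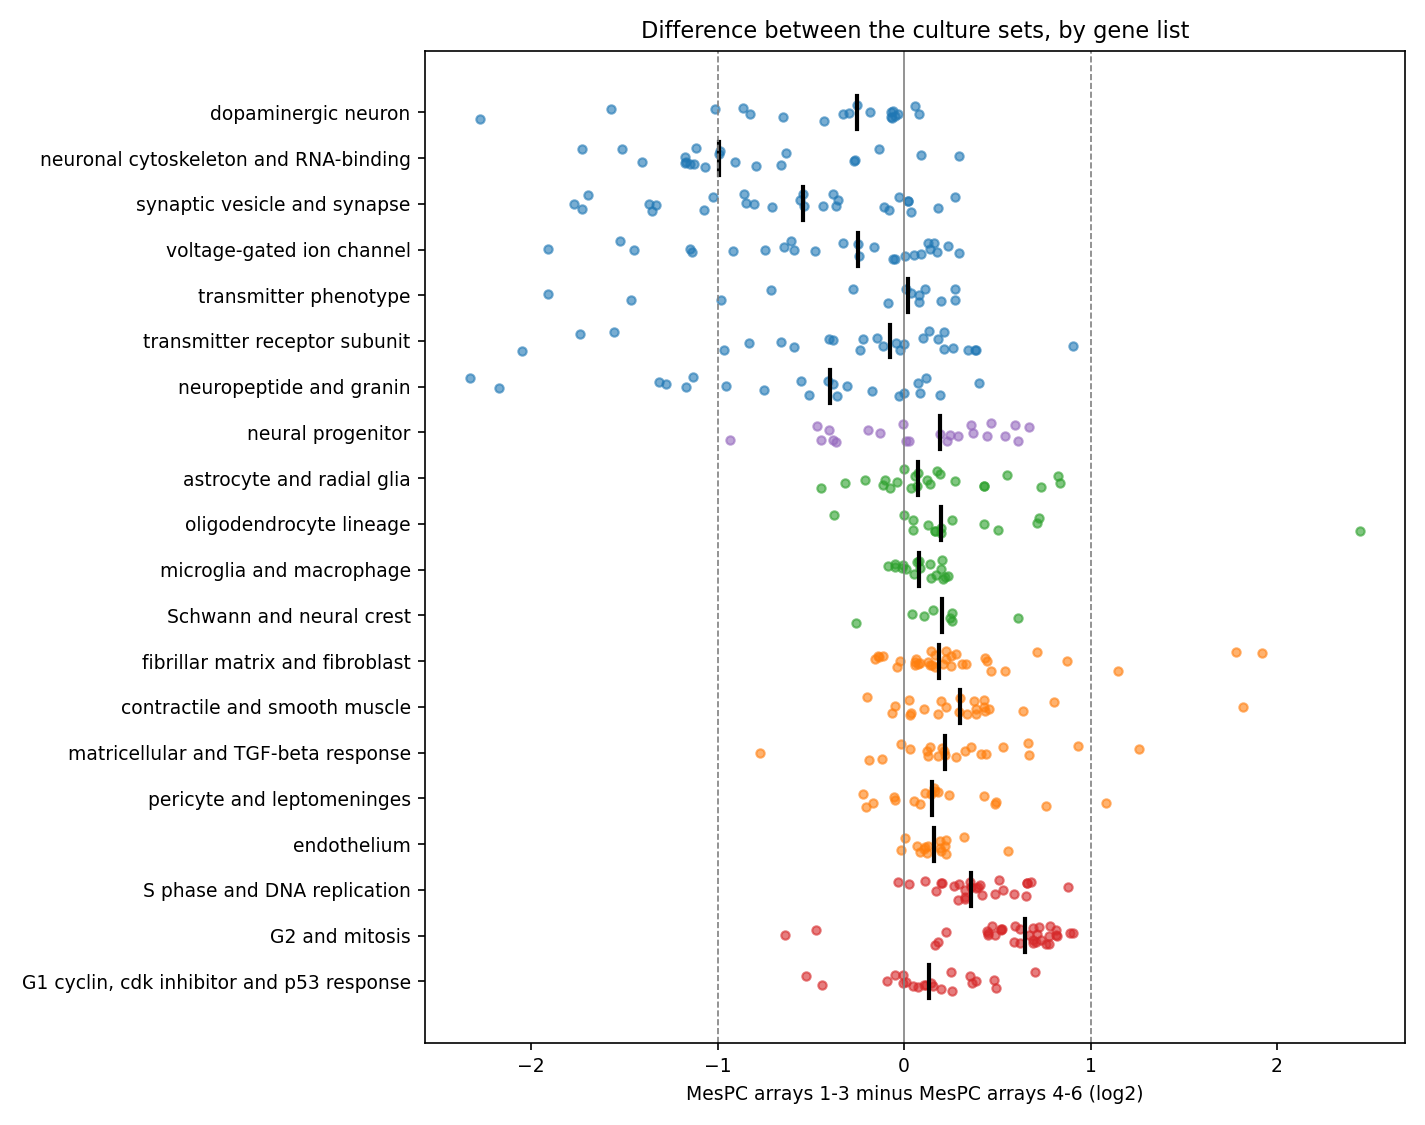
Difference between culture arrays 1 to 3 and 4 to 6 (log2, x axis) for each measured gene of 20 neuronal, progenitor, glial, mesenchymal and cell cycle lists (y axis, 1 point per gene, vertical scatter arbitrary), with black bars at the list medians and dashed lines at 2-fold. The neuronal lists reach below -1 with medians from -0.99 to 0.02, and the genes of G2 and mitosis form a narrow group around 0.65 with Aurkb and Stmn1 apart on the lower side.

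Mesenchymal genes were more often higher than lower in arrays 1 to 3, but the abundant fibrillar collagens were not among them. Of 34 fibrillar matrix and fibroblast genes, 21 (61.8%) were higher without overlap and none was lower, against 26% and 22.4% of all genes. The list median was 0.19, or 0.07 under ribosomal centring. Mgp, matrix Gla protein, an inhibitor of calcification, read 9.42, 9.94 and 9.87 against 7.96, 7.96 and 7.55, a difference of 1.92 ± 0.15. Col5a3, a chain of collagen V, read 9.76, 10.29 and 9.996 against 8.32, 8.24 and 8.14, a difference of 1.78 ± 0.11. In both genes arrays 4 to 6 lay near the tissue means of 7.52 and 8.11. Lox, the enzyme that crosslinks collagen and elastin, differed by 1.15 ± 0.09, Ogn, a small matrix proteoglycan, by 0.87 ± 0.13 with 0.27 to 1.38 on further probe sets, and Fbln1, fibulin 1, by 0.71 ± 0.09. The main collagens went another way: Col1a1 read 12.09, 12.18 and 12.08 against 12.27, 12.39 and 12.15, and Col3a1 read 13.17, 13.02 and 12.98 against 12.97, 13.17 and 13.10. Both overlapped between the sets, at -0.15 ± 0.07 and -0.02 ± 0.07, and both sets lay far above the tissue means of 8.81 and 7.51. The levels of these collagens did not separate the culture sets.

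Contractile genes had 16 of 23 members (69.6%) higher without overlap and none lower, against 26% and 22.4% of all genes. The list median was 0.30, or 0.18 under ribosomal centring. Tagln, the actin-binding protein transgelin of smooth muscle and activated fibroblasts, read 9.88, 10.07 and 9.91 against 8.45, 8.20 and 7.75, and 6.83 in tissue, a difference of 1.82 ± 0.15. It was the only member past 2-fold. Csrp1 at 0.81 and Cald1, caldesmon, at 0.64 followed. Acta2, smooth muscle actin, differed by only 0.22 ± 0.07, from 9.29, 9.45 and 9.22 to 9.08, 9.17 and 9.03, while Myh11, the myosin of mature smooth muscle, overlapped at -0.05. Of 22 matricellular and TGF-beta response genes, 14 (63.6%) were higher and 2 (9.1%) lower without overlap, with a median of 0.22, or 0.10 under ribosomal centring. Ccn2, a matricellular growth factor, read 11.75, 12.06 and 11.56 against 10.63, 10.54 and 10.41, a difference of 1.26 ± 0.11. Serpine2, a protease inhibitor, differed by 0.93, and Ccn3, of the same family as Ccn2, ran against it at -0.77.

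The promoter of Ccn2 is shown because the gene is a standard target of YAP and TEAD factors and the window holds 3 copies of the TEAD motif GGAATG, searched on both strands and set in capitals. It lies at chr1:22624565-22624864 on the minus strand of GRCr8, from RefSeq.
Ccn2: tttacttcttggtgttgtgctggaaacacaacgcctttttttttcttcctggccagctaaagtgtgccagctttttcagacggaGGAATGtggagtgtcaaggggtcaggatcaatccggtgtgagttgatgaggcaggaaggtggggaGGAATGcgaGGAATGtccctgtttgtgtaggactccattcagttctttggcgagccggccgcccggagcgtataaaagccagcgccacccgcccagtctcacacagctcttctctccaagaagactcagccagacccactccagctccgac
Among the contractile genes 6 of 18 matched promoters (33.3%) held GGAATG and among the matricellular genes 3 of 15 (20.0%). The share of all promoters was 14.2%. In the other mesenchymal lists it was 4 of 23 (17.4%) for fibrillar matrix, 1 of 11 (9.1%) for endothelium and 0 of 14 for pericytes. In the neuropeptide and granin list, most of whose genes were lower without overlap, it was 4 of 16 (25%). For skeletal muscle it was 4 of 17 (23.5%). A share above that of all promoters was thus not particular to lists with higher genes. These shares were not tested.

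Among pericyte and leptomeningeal genes, 6 of 18 (33.3%) were higher and 2 (11.1%) lower without overlap, against 26% and 22.4% of all genes. Igfbp2, an IGF-binding protein of meninges and glia, read 13.58, 13.74 and 13.67 against 12.60, 12.59 and 12.54, a difference of 1.08 ± 0.06. Pdgfrb, the receptor that marks pericytes, was lower at -0.22. Igf2, a growth factor, was lower at -0.20 on its brightest probe set, while 3 dimmer ones gave 0.06 to 0.09. The median of the pericyte list was 0.15. The endothelial list had 6 of 16 (37.5%) higher and none lower. Emcn, an endothelial sialomucin, was at 0.56 and Pecam1, the endothelial adhesion molecule, overlapped at -0.01. This list was dim, with 5 of its 16 genes under the highest bacterial control in both sets. In the dimmest quartile of all genes 29.7% were higher and 5.5% lower, so these counts say little of endothelium. The median level of the endothelial list ran from 6.94 upward in arrays 1 to 3 and was at most 6.87 in arrays 4 to 6, both near the bacterial controls.

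Cell cycle genes had the highest share of members above arrays 4 to 6 of any list. Of 34 genes of G2 and mitosis, 30 (88.2%) were higher without overlap, against 26% of all genes. Another 2 were lower and 2 overlapped, and the list median was 0.65, or 0.53 under ribosomal centring. Mki67, a protein of dividing cells, read 10.38, 10.40 and 10.07 in arrays 1 to 3, 9.44, 9.44 and 9.29 in arrays 4 to 6, and 8.32 on average in tissue. It differed by 0.89 ± 0.09. Cdk1, the mitotic cyclin-dependent kinase, read 10.86, 10.87 and 10.83 against 10.15, 10.20 and 9.88, a difference of 0.78 ± 0.08. Both genes ran from tissue through arrays 4 to 6 to arrays 1 to 3. Top2a, which untangles DNA before division, differed by 0.82 ± 0.09 and by 0.61 on its other probe set, Ccnb2, a mitotic cyclin, by 0.78 ± 0.08, and Kifc1, a spindle motor, by 0.91. None of the 34 reached 2-fold.

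The 2 lower members of the mitotic list were Aurkb and Stmn1. Aurkb, the kinase of the chromosomal passenger complex, read 10.01, 10.01 and 10.001 against 10.70, 10.61 and 10.62, a difference of -0.64 ± 0.05, while its tissue mean was 7.83. Its partners in that complex went the other way, Birc5 at 0.72 and Cdca8 at 0.71, as did the related kinase gene Aurka at 0.44. Aurkb had 1 probe set, so no second measurement of it was at hand. Stmn1, a microtubule regulator that neurons also express, differed by -0.47 ± 0.06.

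DNA replication genes had 22 of 27 members (81.5%) higher without overlap and none lower, against 26% and 22.4% of all genes. The list median was 0.36, or 0.24 under ribosomal centring. Pola1, the catalytic subunit of DNA polymerase alpha, read 7.86, 7.74 and 7.99 against 7.05, 6.96 and 6.94, a difference of 0.88 ± 0.07. Mcm4, a subunit of the replicative helicase, differed by 0.68 ± 0.08, and Pcna, the sliding clamp, by 0.36 ± 0.06, from 12.11, 12.16 and 12.09 to 11.81, 11.80 and 11.66. Tk1, the thymidine kinase of S phase, gave 0.59, and 1.03 on its other probe set. Prim1 at -0.03 and Dnmt1 at 0.03 overlapped. Genes of G1, cdk inhibition and p53 response had 13 of 22 (59.1%) higher and 2 (9.1%) lower, with a median of 0.13, or 0.013 under ribosomal centring. Ccnd2 was the highest at 0.70, and Ccnd1, a cyclin of G1, read 9.75, 10.005 and 9.79 against 9.49, 9.55 and 9.34, a difference of 0.38 ± 0.08. Unlike Mki67 and Cdk1, Ccnd1 was above both culture sets in tissue, at 10.91. Cdkn2a at 0.48 and Cdkn1a at 0.36, inhibitors of the cycle, were also higher in arrays 1 to 3, and Mycn was lower at -0.53.

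The promoters of Cdk1, Mki67 and Top2a are shown because genes of G2 and mitosis share 2 short motifs: the CCAAT box, bound by NF-Y, and the cell cycle homology region TTTGAA, bound by the DREAM and MuvB complexes. Both were searched on both strands and are in capitals, so that ATTGG is CCAAT and TTCAAA is TTTGAA on the other strand. The windows, from RefSeq on GRCr8, are chr20:19265043-19265342 on the plus strand for Cdk1, chr1:199952544-199952843 on the minus strand for Mki67 and chr10:84473044-84473343 on the minus strand for Top2a.
Cdk1: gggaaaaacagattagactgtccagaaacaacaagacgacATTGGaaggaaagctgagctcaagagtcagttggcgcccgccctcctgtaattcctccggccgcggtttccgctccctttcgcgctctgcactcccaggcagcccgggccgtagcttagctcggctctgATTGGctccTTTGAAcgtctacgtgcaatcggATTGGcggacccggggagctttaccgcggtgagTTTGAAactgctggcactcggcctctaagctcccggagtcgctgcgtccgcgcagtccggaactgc
Mki67: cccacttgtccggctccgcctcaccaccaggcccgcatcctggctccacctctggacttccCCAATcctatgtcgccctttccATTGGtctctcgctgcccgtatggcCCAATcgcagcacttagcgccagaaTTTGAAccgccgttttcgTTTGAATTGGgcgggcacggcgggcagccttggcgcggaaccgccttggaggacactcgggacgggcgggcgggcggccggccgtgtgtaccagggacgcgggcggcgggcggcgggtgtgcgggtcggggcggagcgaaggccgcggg
Top2a: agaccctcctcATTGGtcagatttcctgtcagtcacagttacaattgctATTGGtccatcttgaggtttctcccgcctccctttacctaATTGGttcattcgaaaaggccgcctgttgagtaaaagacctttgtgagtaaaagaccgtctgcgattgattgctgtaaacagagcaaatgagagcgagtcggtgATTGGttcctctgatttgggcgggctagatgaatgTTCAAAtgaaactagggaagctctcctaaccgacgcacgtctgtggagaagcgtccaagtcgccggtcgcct
Cdk1 held 3 CCAAT and 2 TTTGAA, Mki67 held 4 and 2, of which 1 pair overlapped, and Top2a held 4 and 1. RefSeq promoters matched 30 of the 34 mitotic genes. CCAAT was in 25 of the 30 (83.3%), against 37.5% of all 33469 promoters, TTTGAA in 21 (70.0%), against 18.3%, and both in 18 (60.0%), against 7.4%. In the replication list 14 of 25 promoters (56.0%) held CCAAT but only 1 (4.0%) held TTTGAA. In the cholesterol and lipid synthesis list, most of whose genes were lower in arrays 1 to 3, 13 of 16 promoters (81.25%) held CCAAT and 2 (12.5%) TTTGAA. A high share of CCAAT was thus not particular to the mitotic genes. Within the mitotic list the median difference was 0.71 over the 21 genes with TTTGAA and 0.45 over the 9 without, with overlapping ranges of 0.22 to 0.91 and -0.47 to 0.81. These shares describe the letters of the windows and were not tested.

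The 27 higher genes included 3 that restrain signalling through receptor tyrosine kinases and ERK: Dusp6, Spry1 and Spry2. A list of 23 receptors, ligands, targets and inhibitors of this pathway was drawn up after their values were seen, and its counts serve only as an account. Of 16 measured, 10 were higher and none lower without overlap, 5 of them by 2-fold, with a median of 0.33. Of all genes, 26% were higher and 22.4% lower without overlap, and 0.259% were higher by 2-fold. The list holds the genes that prompted it, so a larger share was built in. Dusp6, a phosphatase that switches off ERK and is itself induced by it, read 11.07, 11.58 and 11.27 in arrays 1 to 3 and 9.51, 9.49 and 9.16 in arrays 4 to 6, with 9.71 in tissue. Its difference was 1.92 ± 0.13, and its further probe sets gave 1.86 and 1.11. Spry1, a feedback inhibitor of receptor tyrosine kinases, read 10.69, 11.05 and 10.76 against 9.22, 9.21 and 9.12, a difference of 1.65 ± 0.09. Spry2, of the same family, differed by 1.30 ± 0.13. In all 3 genes the sets were clearly separate and array 2 was the highest.

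Elk3, an ETS transcription factor acting under ERK, differed by 1.45 ± 0.08 and by 0.48 on another probe set, and Egfr, the receptor of epidermal growth factor, by 1.24 ± 0.09. Egfr read 9.99, 10.29 and 10.10 against 9.01, 8.95 and 8.72, and both sets were above the tissue mean of 7.05. Egr1, an immediate early transcription factor, differed by 0.87 ± 0.07 and Fgfr1 by 0.49 ± 0.07. Not all members shared this: Fgfr2, Phlda1, Dusp4, Hbegf, Tgfa and Fgfr3 overlapped, with differences from -0.10 to 0.14. In the wider list of 26 immediate early and stress genes, 16 (61.5%) were higher and none lower without overlap, against 26% and 22.4% of all genes. The list median was 0.16, and Fos itself differed by only 0.10. The remaining genes of the 15 highest were Rgs8 at 1.51 ± 0.12, a regulator of G protein signalling, Apln, the peptide ligand apelin, at 1.41 ± 0.08 with 0.60 on another probe set, Cbr3, a carbonyl reductase, at 1.40 ± 0.12, and Lpl, lipoprotein lipase, at 1.25 ± 0.06.

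Lists of metabolism and other cell states differed by small amounts. Of the 21 cholesterol and lipid synthesis genes, 15 were lower in arrays 1 to 3 without overlap and none was higher, with a median of -0.21, or -0.13 under quantile normalization. Scd, a fatty acid desaturase, differed by -0.56 ± 0.08, Idi1, an isomerase of the isoprenoid pathway, by -0.49 ± 0.06, and Fdft1, squalene synthase, by -0.47 ± 0.05. Srebf2, the transcription factor over this pathway, overlapped at -0.04. Cytosolic ribosomal protein genes had 20 of 27 higher and none lower, with a median of 0.11, which ribosomal centring removes by construction. Interferon and MHC class I genes had 12 of 21 higher, led by Ifitm3 at 0.56, and genes of amino acid and ER stress response 11 of 23 higher and 3 lower. Erythroid genes had 4 of 11 (36.4%) higher, and skeletal muscle genes 4 of 20 (20%) higher and 1 (5%) lower, Acta1 at -0.66. Of all genes 26% were higher and 22.4% lower, and of the dimmest quartile 29.7% and 5.5%. Both lists are dim, with 4 of the 11 and 10 of the 20 genes under the highest bacterial control in both sets, so these counts say little. Hbe1, an embryonic globin, read 7.42, 7.32 and 7.29 against 6.31, 6.75 and 6.54 and 12.91 in tissue, so both culture sets were far below the embryo.

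Against the tissue, the genes that part the sets had an order. Arrays 4 to 6 lay nearer the tissue mean than arrays 1 to 3 did for 156 of the 161 genes lower in arrays 1 to 3 (96.9%). The same held for 26 of the 27 higher ones (96.3%), and for 5605 of all 10411 genes (53.8%). All genes include 5377 that overlapped between the sets, so the 53.8% is no matched background. The tissue lay beyond arrays 4 to 6 for 139 of the 161 and between the sets for 20. The exceptions, where arrays 1 to 3 were nearer the tissue, were Aldh1a1, Calb1, Cdh22, Itih3 and Slc28a2 among the lower genes and Wif1 among the higher ones. Itih3, a chain of a hyaluronan-binding inhibitor, read 8.98, 8.92 and 8.93 against 10.50, 10.75 and 10.47 and 7.85 in tissue. Slc28a2, a nucleoside transporter, read 6.89, 7.10 and 6.99 against 8.31, 8.27 and 8.21, and 6.92 in tissue, so arrays 4 to 6 alone stood high. Wif1, an inhibitor of Wnt ligands, was at 7.55, 7.53 and 7.22 against 6.46, 6.26 and 6.55, with 7.03 in tissue, and its values in arrays 4 to 6 lay at background. Over all probe sets, correlations with the tissue arrays reached at most 0.953 for arrays 1 to 3 and at least 0.966 for arrays 4 to 6.

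**Figure D4:**
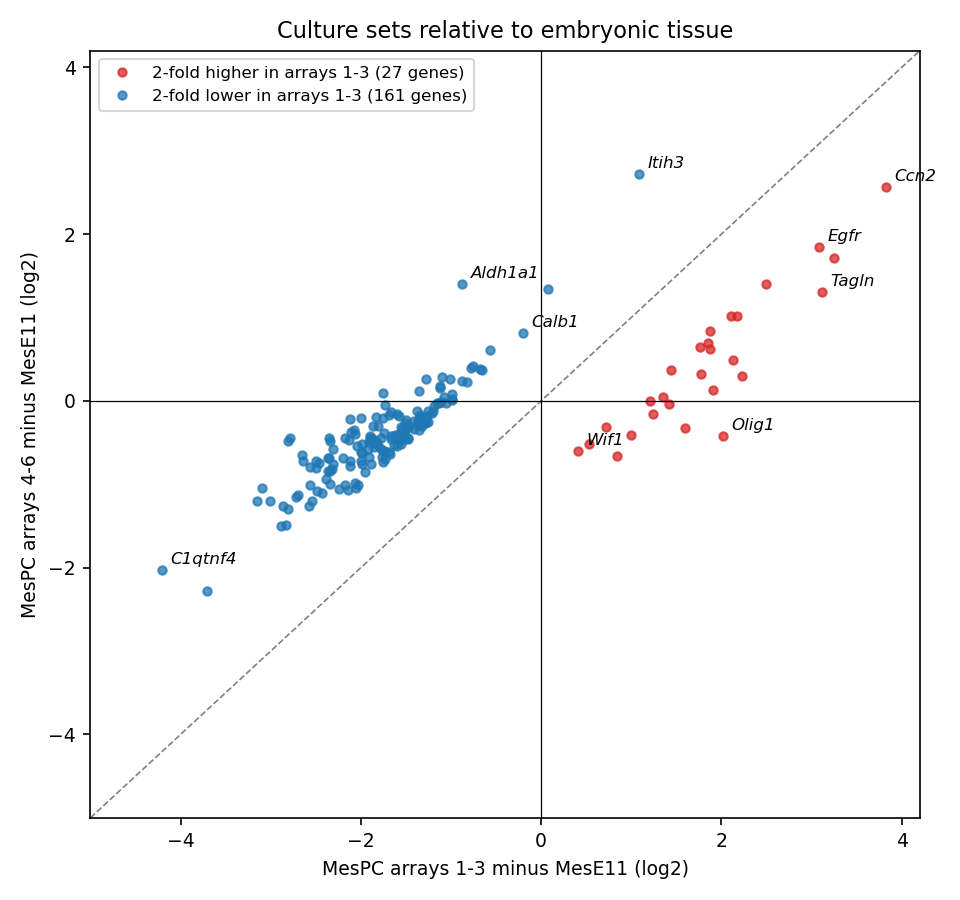
Mean of culture arrays 1 to 3 minus tissue (log2, x axis) against mean of culture arrays 4 to 6 minus tissue (log2, y axis) for the 161 genes lower (blue) and 27 genes higher (red) in arrays 1 to 3 by 2-fold or more without overlap. Both axes share the tissue mean and the genes were chosen for the distance from the dashed diagonal, so only the position to the tissue, at 0 on each axis, is to be read: most blue points lie below 0 on both axes, and Itih3 lies above 0 on both.

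Technical measures also parted the sets. Spiked hybridization controls, which are added in fixed amounts, averaged 9.89 ± 0.16 (SD, n = 3) in arrays 1 to 3 and 9.51 ± 0.15 in arrays 4 to 6. The difference between the controls BioD and BioB was 4.54 ± 0.04 against 4.27 ± 0.10, and with other probe sets of both it overlapped. The 3′ minus 5′ difference, which rises when RNA is degraded or copied short, was 0.41 ± 0.07 against 0.59 ± 0.07 for beta-actin and 1.2 ± 0.09 against 1.47 ± 0.08 for hexokinase. For GAPDH it was 0.58 ± 0.03 against 0.63 ± 0.08 and overlapped. Tissue means were 0.68 for beta-actin, 1.63 for hexokinase, 0.75 for GAPDH and 4.05 for BioD minus BioB. For these the mean of arrays 4 to 6 lay between arrays 1 to 3 and the tissue, the order that most of the lower genes also took. The hybridization controls did not, with a tissue mean of 9.88. The two-sided exact permutation test of these measures gave p = 0.1 for the hybridization controls, for BioD minus BioB, for beta-actin and for hexokinase, the smallest p that 3 against 3 arrays allow, and 0.5 for GAPDH, with 0.125 after adjustment over 5 measures for the first 4. Lower quartiles of all probe sets ran from 7.09 to 7.11 in the former set and from 6.98 to 7.07 in the latter. The part of these measures in the gene differences was not tested.

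Within a set the arrays were closely alike. The median SD of a probe set was 0.065 in arrays 1 to 3, 0.080 in arrays 4 to 6 and 0.092 in tissue, against 0.115 over the 6 culture arrays. Once the set means were removed, correlations of the deviations across the sets ran from -0.23 to 0.24 over the 9 pairs. The highest were 0.24 for arrays 2 and 6, 0.16 for arrays 1 and 4 and 0.08 for arrays 3 and 5. The lowest was that of arrays 2 and 4. Deviations within a set depend on each other, and whether arrays are paired across the sets was not tested.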

How the data were processed

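RNA of 6 culture and 3 tissue samples was measured on Affymetrix arrays. The deposited values are log2 intensities that the authors made with RMA, the one tool that the submitters' processing notes name, without its version. RMA brings arrays to nearly one distribution, so a gene's difference is relative to the rest of the array. Arrays have no read depth, and their number limits the precision. Values of the table's 15923 probe sets ran from 4.69 to 14.78. The 57 Affymetrix controls were kept apart, which left 15866. The platform annotation gave 1 symbol to 12783 of these and several to 312, and 2771 were not listed. A RefSeq table (GRCr8) held the Entrez numbers of 12748 and changed 0 symbols. These stood for 10411 genes.

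limma 3.58.1 in R 4.3.3 (lmFit, eBayes) was fitted to the 6 culture arrays, with Benjamini-Hochberg adjustment, and was tested on simulated data. Control measures were compared with exact permutation tests in scipy 1.17.1. The 28 gene lists, the sets and the genes were chosen with earlier results of these data known. Named are the 15 largest differences per direction without overlap (predicted loci left out), up to 4 members per list 2-fold apart without overlap in the main direction and 2 in the other, and a fixed set of markers (66 genes in all). Other genes were named after their values were seen, to show the range of a list. Alternatives were quantile normalization, centring on all or on ribosomal probe sets, omission of 1 array or of the dimmest 40%, a fit of all 9 arrays, a trended robust prior, averaging each gene's probe sets and other control probe sets. For the 3′ minus 5′ measures, the other control probe sets put the middle probe set in place of the 5′ one. Promoters were searched for exact letters.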

Additional observations from a re-analysis of the deposited data

Results flagged for a closer look

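The 3′ minus 5′ difference of GAPDH was 0.729 in culture array 4, apart from the other 5 culture arrays, which lay between 0.558 and 0.610. Its gap to the nearest array was large for the range of the 6 by Dixon's criterion, which marks about 1 group in 20 by chance. The 3′ minus middle difference of GAPDH, another measure, was 0.106 for the same array, beside 0.0947 for culture array 2.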

How the results depend on the processing

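Counts of probe sets 2-fold apart without overlap stayed within 1.5 times under quantile normalization, both centrings, the filter on dim probe sets and each array left out (35 to 49 higher and 214 to 277 lower without 1 array). Ribosomal centring gave 1134 higher and 4539 lower at limma's threshold. It moved the list medians to -0.37 for dopaminergic genes, -1.11 for cytoskeleton, -0.66 for synapse, -0.36 for channels, -0.10 for transmitter phenotype, -0.20 for receptors, -0.51 for neuropeptides, 0.076 for progenitors, -0.042 for astrocytes, 0.081 for oligodendrocytes, -0.036 for microglia, 0.084 for Schwann cells, 0.071 for fibrillar matrix, 0.18 for contractile genes, 0.10 for matricellular genes, 0.042 for endothelium, 0.24 for S phase, 0.53 for G2 and mitosis and 0.013 for G1. These shifts follow from the centring itself, which lowers every difference by the same amount. Quantile normalization gave -0.052 for transmitter phenotype, -0.15 for receptors, 0.26 for progenitors and 0.41 for S phase. Without the dimmest 40%, medians were -0.54 for dopaminergic genes, -1.07 for cytoskeleton, -0.81 for synapse, -0.61 for channels, -0.85 for transmitter phenotype, -0.62 for receptors, -0.56 for neuropeptides and 0.50 for oligodendrocytes, over fewer genes. The mean over a gene's probe sets gave -0.81 for cytoskeleton and -0.41 for synapse. Leaving out each array in turn gave medians from -1.05 to -0.94 for cytoskeleton, 0.11 to 0.21 for progenitors, -0.043 to 0.053 for transmitter phenotype and -0.61 to -0.53 for synapse. The GAPDH 3′ minus 5′ difference between the sets was -0.053, and with the middle in place of the 5′ probe set it was 0.0157. These are unlike measures, so the change of sign is no reversal of one measure. The mean over probe sets moved 16 of the 66 named genes, among them Ddc to -0.67, Cd200 to -0.94, Gabrb2 to -0.91, Glra2 to -1.12, Slc6a3 to -0.43 and Tubb3 to -0.53. No paired analysis was possible because the culture sets share no replicate number and their description rests on no test. Dim probe sets near the bacterial controls limit what can be said of low genes.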
